A study of Mus musculus with 9 samples.

Results

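The genes described here are 28 members of the cholesterol synthesis pathway and of its control by SREBP2, chosen by symbol from a matrix of 54838 mouse genes. They comprise 21 enzymes, from the joining of acetyl-CoA units to cholesterol itself, and 7 proteins that sense sterols, release SREBP2 or bind sterol intermediates. All 28 were among the 16422 genes tested. Transcripts were sequenced from corona radiata cells, the cumulus granulosa cells that lie closest to the oocyte, from adult mice given PMSG, which drives follicle growth, and hCG, which triggers ovulation. All 9 libraries come from stimulated mice, and the labels add a term, J4, that they do not explain. The 3 genotypes have 3 libraries each. Transgenic mice carry the transgene TG-AMH-LXRb on a DKO LXR background, LXR DKO mice are knocked out for both liver X receptors, and WT mice are wild type. The double knockout is thus shared by the first 2 genotypes. The labels describe neither the promoter and coding sequence of the transgene nor the deleted part of either receptor gene, and do not say that the libraries came from separate animals. The p-values therefore rest on a spread between samples that may be only technical.

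Cholesterol is built from acetyl-CoA through mevalonate, isoprenoid diphosphates, squalene and lanosterol. When sterols in the endoplasmic reticulum fall, SCAP carries SREBP2 to the Golgi, where a pair of proteases release the part that switches on the genes of the pathway. When sterols are plentiful, INSIG proteins hold SCAP back, and oxysterols activate the liver X receptors, which turn on genes of sterol export. In the ovary, cumulus cells make sterols that are passed to the oocyte, and granulosa cells use cholesterol for steroid hormones.

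Values are RPKM, the reads of a gene divided by its length and by library size, with means ± SD over 3 libraries. Differences are log2 fold changes ± SE of values transformed to log2(RPKM + 1). They were tested with limma, p-values were adjusted over all tested genes by the Benjamini-Hochberg method, and a gene is said to rise or fall where the adjusted p was below 0.05. Nr1h2, which encodes LXR beta, lay between 4.83 and 6.70 RPKM in transgenic, between 2.85 and 3.57 RPKM in LXR DKO and between 39.7 and 45.7 RPKM in WT libraries. Nr1h3, which encodes LXR alpha, stayed at or below 0.819 RPKM in transgenic and 1.08 RPKM in LXR DKO libraries, and was at least 3.50 RPKM in WT libraries. Reads in genes, worked back from the deposited values, ranged from 31780900 to 46972430 per library, and 3 reads on 1 kb of exons correspond to 0.0638 to 0.0965 RPKM. The granulosa markers Inha and Tnfaip6 were at least 150 and 89.7 RPKM in every library, whereas Cyp19a1 was at most 1.19 RPKM. Oocyte RNA set 2 libraries apart, though not to the same degree. The oocyte gene Gdf9 reached 136 RPKM in LXR DKO 1 and 127 RPKM in WT 1. Averaged over all 12 oocyte markers, however, log2(RPKM + 1) came to 3.76 for LXR DKO 1 but 5.95 for WT 1, and to at most 1.72 for any other library. WT 3 stood apart by red cell RNA, with a mean log2(RPKM + 1) of 7 red cell markers of 7.31, against at most 5.30 in any other library. Only within WT did it stand apart by oviduct markers, at 4.65 against 2.20 and 2.01 in the other WT libraries. The same mean was 4.22 to 4.80 in transgenic and 3.01 to 3.82 in LXR DKO libraries. Fewer cells of a type and less RNA per cell cannot be told apart in such bulk samples.

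Few of the 28 genes passed the test in any comparison. In LXR DKO against WT, 2 of the 28 genes rose (Sc5d and Dhcr7), 1 fell (Ggps1) and 25 did not pass the test. Of all tested genes, 10.6% passed in that comparison, 3.47% higher and 7.12% lower, so the share of the pathway was close to that of all genes. The median difference of the 28 was 0.06 on the log2 scale, beside 0.02 for all tested genes. In transgenic against LXR DKO libraries, none of the 28 rose by limma, 1 fell (Sc5d) and 27 did not pass. Of the 28, 3 had an unadjusted p below 0.05, all lower in transgenic (Sc5d, Dhcr7 and Tmem97), beside 8.1% of all tested genes. By voom, the form of limma for read counts, run on the reads worked back from the RPKM values of all members but Tm7sf2, none rose and Sc5d fell. In that comparison 0.116% of all tested genes passed, 0.0548% higher and 0.0609% lower. The median of the 28 was -0.06, beside 0.01 for all tested genes. In transgenic against WT libraries, 1 rose (Nsdhl), 1 fell (Ggps1) and 26 did not pass, where 11.9% of all tested genes passed, 5.15% higher and 6.72% lower. The median of the 28 was -0.03, beside 0.01 for all tested genes. These comparisons share libraries, and their counts are not independent of each other.

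**Figure D1:**
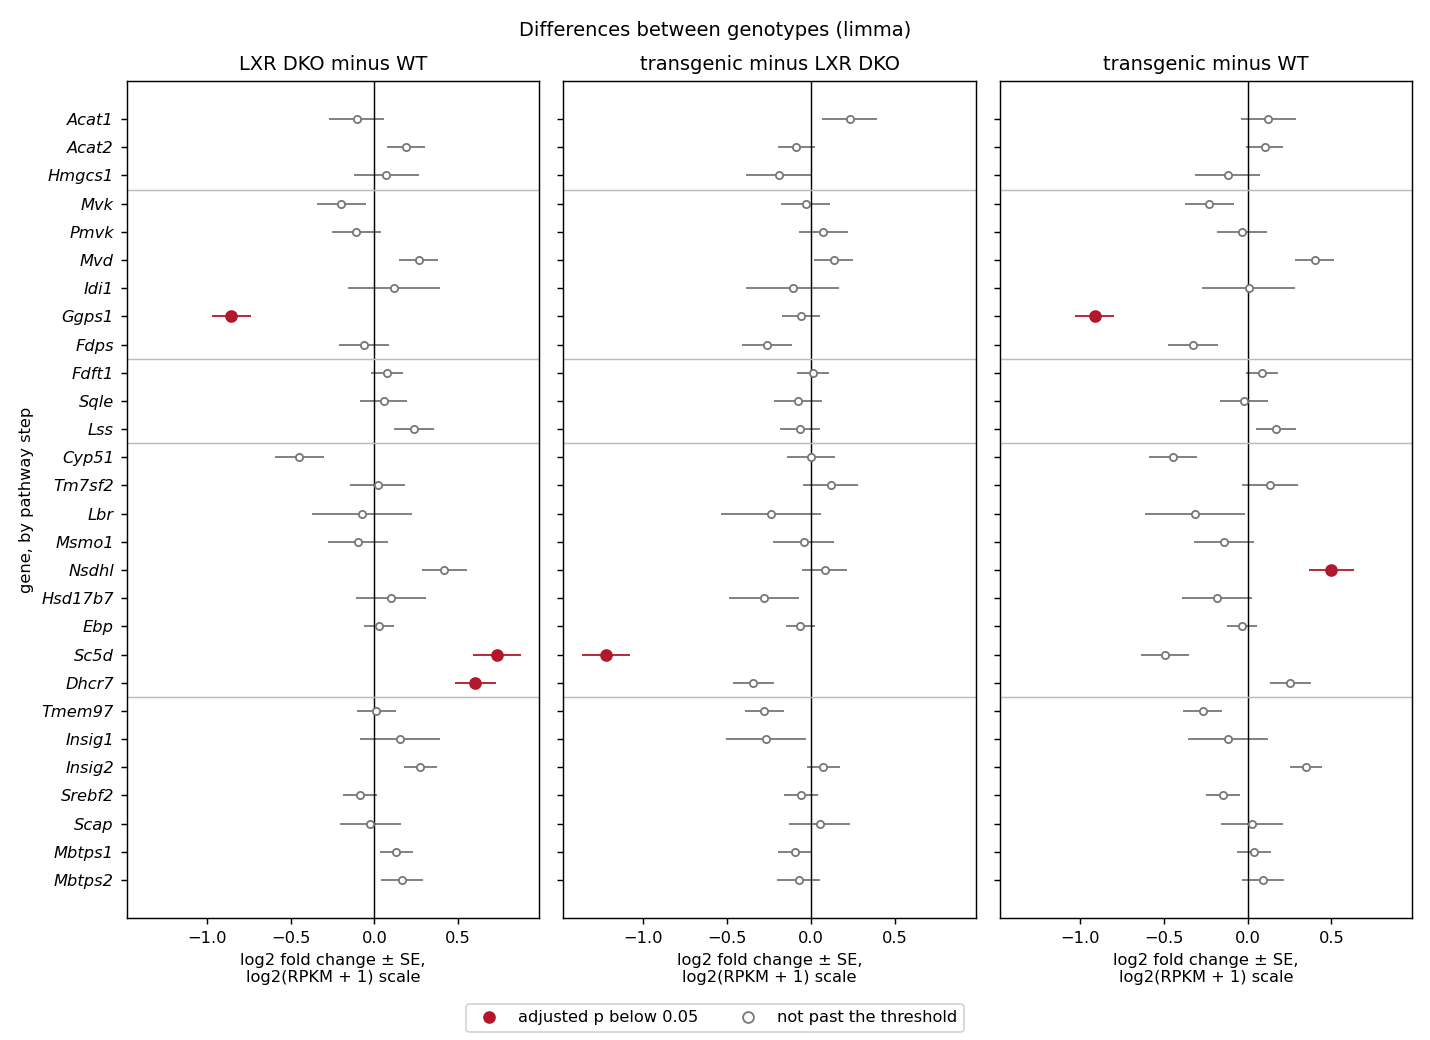
Log2 fold change ± SE of the 28 genes on the log2(RPKM + 1) scale, in the order of the pathway, with a panel each for LXR DKO minus WT (left), transgenic minus LXR DKO (middle) and transgenic minus WT (right); filled red points have an adjusted p below 0.05. Ggps1 stands apart on the low side in the left and right panels (-0.85 and -0.91), and Sc5d lies on opposite sides of zero in the left and middle panels (0.73 and -1.22).

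Complete separation of the libraries was counted as well. In LXR DKO against WT, 5 of the 28 genes had every LXR DKO library above every WT library and 2 had every one below, and 28.9% of all tested genes separated in either direction. In transgenic against LXR DKO, 0 genes lay wholly above and 4 wholly below (Lbr, Sc5d, Dhcr7 and Tmem97), beside 18.3% of all tested genes. In transgenic against WT, 3 lay wholly above (Mvd, Nsdhl and Insig2) and 4 wholly below (Ggps1, Cyp51, Sc5d and Tmem97), beside 35.7% of all tested genes. In the mean of all 9 libraries, 9 of the genes were at or above 20 RPKM, led by Scap at 59.6 RPKM, Hmgcs1 at 41.0 RPKM and Mbtps1 at 38.2 RPKM. The lowest were Tm7sf2 at 1.15 RPKM, Mbtps2 at 1.74 RPKM and Lss at 4.10 RPKM. Several values are uncertain because exons overlap those of other genes, among them 26.7% of the exon bases of Fdps, 18.3% of Fdft1, 13.2% of Scap, 12.1% each of Hmgcs1 and Tm7sf2 and 10.7% of Lbr.

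Promoters bear on genes that SREBP2 and its partner NF-Y regulate together, so the windows of 3 enzymes are shown: Hmgcs1, the only one with a match to the sterol regulatory element, and Ggps1 and Sc5d, the enzymes with the largest differences. Each runs 5′ to 3′ on the strand of the gene, from 250 bases before to 50 bases after the RefSeq start (GRCm38.p6, the mm10 build), and capitals mark the sterol regulatory element and the CCAAT box on either strand (CCAAT or ATTGG). The windows lie at chr13:119690101-119690400 on the plus strand for Hmgcs1, chr13:14063439-14063738 on the minus strand for Ggps1 and chr9:42264251-42264550 on the minus strand for Sc5d.
Hmgcs1: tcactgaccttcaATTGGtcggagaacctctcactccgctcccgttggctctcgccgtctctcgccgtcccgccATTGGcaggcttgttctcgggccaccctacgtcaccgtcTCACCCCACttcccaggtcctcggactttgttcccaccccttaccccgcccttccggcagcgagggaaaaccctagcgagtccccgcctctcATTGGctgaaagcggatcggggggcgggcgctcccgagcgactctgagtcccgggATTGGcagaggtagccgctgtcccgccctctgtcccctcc
Ggps1: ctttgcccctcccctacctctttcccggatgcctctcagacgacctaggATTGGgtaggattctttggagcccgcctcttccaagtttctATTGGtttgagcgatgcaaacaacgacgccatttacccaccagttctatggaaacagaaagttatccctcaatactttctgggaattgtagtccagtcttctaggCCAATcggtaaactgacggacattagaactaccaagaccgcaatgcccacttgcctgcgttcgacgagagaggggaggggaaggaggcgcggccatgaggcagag
Sc5d: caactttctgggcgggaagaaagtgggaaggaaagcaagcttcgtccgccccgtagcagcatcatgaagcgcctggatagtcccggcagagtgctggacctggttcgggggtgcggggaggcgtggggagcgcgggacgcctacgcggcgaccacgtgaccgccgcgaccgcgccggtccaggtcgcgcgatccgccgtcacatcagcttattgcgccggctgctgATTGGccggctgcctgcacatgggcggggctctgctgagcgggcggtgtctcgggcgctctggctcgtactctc
The element TCACNCCAC, searched on both strands, matched in 1 of the 24 members that have a window in the RefSeq table, Hmgcs1, where its first base lies at -137 from the start. It matched 1.42% of the 9587 tested genes with a window, and 1.24% of the 32851 windows of that length in the table. CCAAT was found for 20 of the 24 members (83.3%), against 42.8% of the tested genes with a window, and GGGCGG, the GC box read on either strand, for 21 members (87.5%) against 68.2%. A match is a description of these letters, and no match says only that they are not in this window.

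The first steps make HMG-CoA. Acat1 encodes the mitochondrial acetyl-CoA acetyltransferase and Acat2 the cytosolic one, which joins acetyl units for sterol synthesis. Acat1 averaged 12.7 ± 0.724 RPKM in transgenic, 10.7 ± 1.71 RPKM in LXR DKO and 11.7 ± 2.94 RPKM in WT libraries (SD, n = 3 each). Acat2 averaged 11.5 ± 0.367 RPKM in transgenic, 12.3 ± 1.56 RPKM in LXR DKO and 10.7 ± 1.15 RPKM in WT libraries (SD, n = 3 each), and its reads may be shared with its close mouse paralog Acat3. Neither passed the test in any comparison. Hmgcs1 encodes the cytosolic HMG-CoA synthase, a gene that SREBP2 induces strongly. It measured 43.0, 37.7 and 32.6 RPKM in transgenic and 38.8, 39.2 and 52.3 RPKM in LXR DKO libraries, against 35.7, 55.1 and 34.7 RPKM in WT libraries. The groups overlapped throughout, with 1 high library among LXR DKO and 1 among WT. The difference was 0.07 ± 0.20 for LXR DKO minus WT (95% interval -0.37 to 0.52, adjusted p = 0.860), -0.19 for transgenic minus LXR DKO (adjusted p = 0.853) and -0.12 for transgenic minus WT (adjusted p = 0.712). The interval holds changes of either sign, so these libraries do not show that Hmgcs1 was alike in the genotypes.

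The next 6 enzymes turn mevalonate into isoprenoid diphosphates. Ggps1, geranylgeranyl diphosphate synthase, takes farnesyl diphosphate away from sterols and into the lipid that anchors prenylated proteins to membranes. The gene lies on the minus strand at chr13:14050659-14063488 (mm10, ENSMUSG00000021302). Ggps1 measured 5.53, 5.99 and 6.27 RPKM in transgenic and 6.65, 5.49 and 6.55 RPKM in LXR DKO libraries, against 10.4, 13.6 and 12.3 RPKM in WT libraries. All 6 transgenic and LXR DKO libraries lay below all 3 WT libraries, and the transgenic and LXR DKO ranges overlapped. The means were 5.93 ± 0.372 RPKM in transgenic, 6.23 ± 0.641 RPKM in LXR DKO and 12.1 ± 1.62 RPKM in WT libraries (SD, n = 3 each).

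Ggps1 fell by 0.85 ± 0.11 on the log2 scale in LXR DKO against WT (adjusted p = 0.0037) and by 0.91 ± 0.11 in transgenic against WT (adjusted p = 0.00281). In transgenic minus LXR DKO the difference was -0.06 ± 0.11 (adjusted p = 0.935, 95% interval -0.32 to 0.20). Both differences from WT passed the test in all 18 alternative settings. Of the exon bases of Ggps1, 5.44% overlap Arid4b on the other strand. Arid4b itself differed by -0.28 in LXR DKO minus WT (adjusted p = 0.216) and by -0.46 in transgenic minus WT (adjusted p = 0.0538). The latter difference was past the threshold in 4 of 17 alternative settings. The mean log2(RPKM + 1) of 13 granulosa and cumulus markers ranged from 4.10 to 4.34 in transgenic, from 4.08 to 4.37 in LXR DKO and from 4.47 to 4.81 in WT libraries, with none of the 13 at 0 in any library. Of the 12 tested, 4 fell in LXR DKO and 5 in transgenic against WT. Their part in the Ggps1 result was not tested.

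Fdps, the enzyme that makes farnesyl diphosphate for Ggps1 and for squalene, averaged 13.1 ± 1.62 RPKM in transgenic, 16.0 ± 1.62 RPKM in LXR DKO and 16.8 ± 3.52 RPKM in WT libraries (SD, n = 3 each) and did not pass the test in any comparison. The ratio of Fdps to Ggps1, a pair picked with the values known and so described without a test, was 2.68, 2.17 and 1.85 in transgenic, 2.47, 2.57 and 2.64 in LXR DKO and 1.48, 1.53 and 1.16 in WT libraries. Every transgenic and LXR DKO library had a higher ratio than every WT library. Mvd, the decarboxylase that makes isopentenyl diphosphate, measured 12.3, 13.6 and 13.6 RPKM in transgenic and 11.8, 12.8 and 11.2 RPKM in LXR DKO libraries, against 8.08, 10.1 and 11.3 RPKM in WT libraries. Its transgenic libraries lay above all WT libraries, with a difference of 0.40 ± 0.12 that missed the threshold (adjusted p = 0.0578) but passed it without WT 3 (adjusted p = 0.0149).

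Mvk and Pmvk, the kinases that phosphorylate mevalonate in turn, and Idi1, the isomerase of isopentenyl diphosphate, did not pass the test in any comparison. Mvk averaged 5.73 ± 0.838 RPKM in transgenic, 5.88 ± 1.03 RPKM in LXR DKO and 6.88 ± 0.996 RPKM in WT libraries (SD, n = 3 each). Pmvk averaged 10.8 ± 0.747 RPKM in transgenic, 10.4 ± 2.38 RPKM in LXR DKO and 11.1 ± 0.979 RPKM in WT libraries (SD, n = 3 each). Idi1 varied more within genotypes than between them, with 6.82, 7.04 and 4.42 RPKM in transgenic and 5.43, 5.68 and 8.98 RPKM in LXR DKO libraries, against 4.27, 9.23 and 5.24 RPKM in WT libraries.

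Squalene synthase (Fdft1), squalene epoxidase (Sqle) and lanosterol synthase (Lss) commit farnesyl diphosphate to sterols and close the rings, and none of them passed the test. Fdft1 averaged 16.6 ± 0.293 RPKM in transgenic, 16.4 ± 0.259 RPKM in LXR DKO and 15.6 ± 2.06 RPKM in WT libraries (SD, n = 3 each). Sqle averaged 18.6 ± 1.05 RPKM in transgenic, 19.8 ± 2.21 RPKM in LXR DKO and 19.2 ± 4.11 RPKM in WT libraries (SD, n = 3 each). Lss averaged 4.21 ± 0.237 RPKM in transgenic, 4.45 ± 0.334 RPKM in LXR DKO and 3.65 ± 0.636 RPKM in WT libraries (SD, n = 3 each), with a difference of 0.24 ± 0.12 for LXR DKO minus WT (adjusted p = 0.248).

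**Figure D2:**
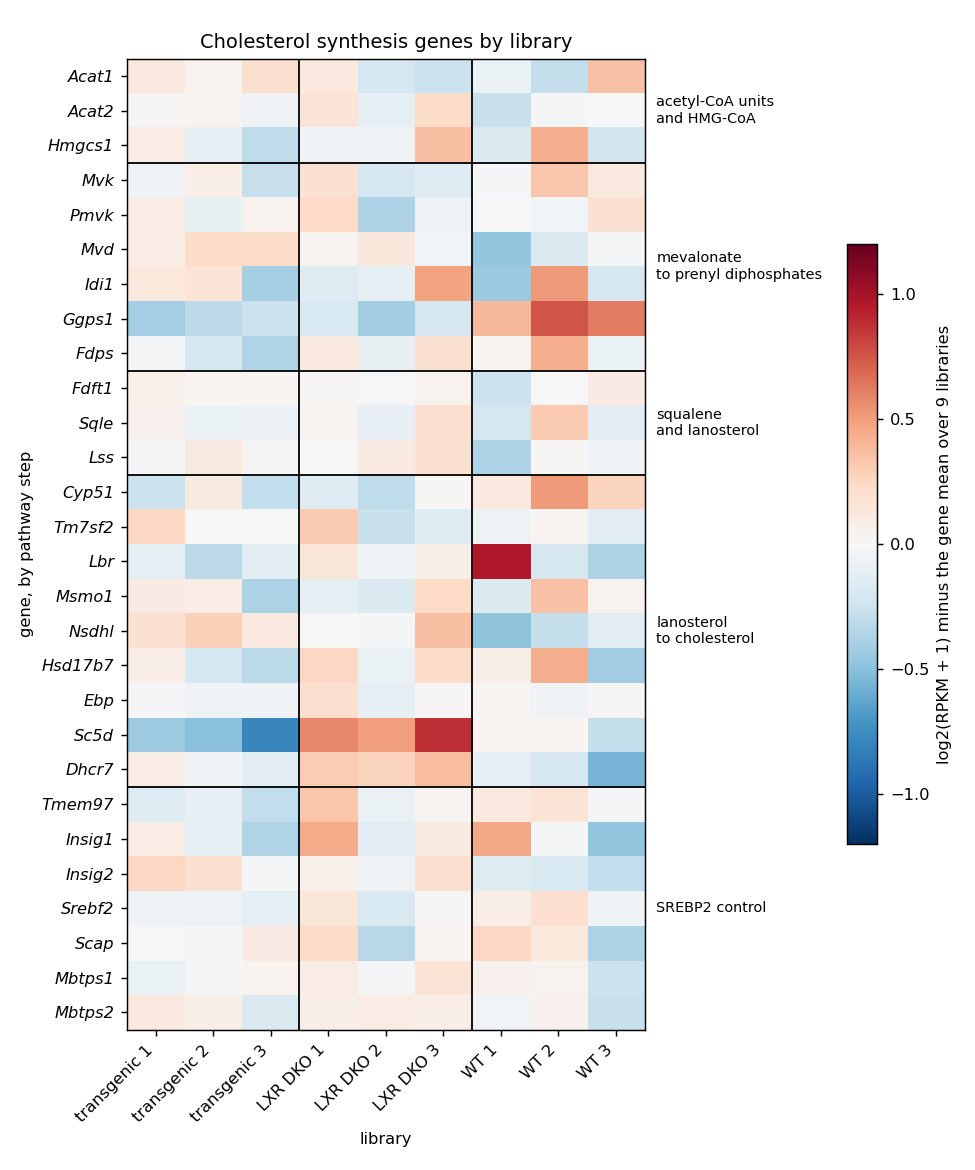
Level of the 28 genes in each of the 9 libraries, as log2(RPKM + 1) minus the mean of the gene over all libraries (colour scale, red above and blue below the mean), ordered by pathway step, with transgenic, LXR DKO and WT libraries from left to right. Ggps1 is high in the 3 WT libraries, Sc5d is high in the 3 LXR DKO libraries and low in the 3 transgenic ones, and Lbr is high in WT 1.

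The last 9 enzymes turn lanosterol into cholesterol. Sc5d encodes the desaturase that makes 7-dehydrocholesterol, and lies on the minus strand at chr9:42251595-42264256 (mm10, ENSMUSG00000032018). It measured 6.53, 6.17 and 4.89 RPKM in transgenic and 14.1, 13.4 and 17.6 RPKM in LXR DKO libraries, against 9.32, 9.32 and 7.35 RPKM in WT libraries. The 3 genotypes did not overlap, with LXR DKO highest, WT between and transgenic lowest. The means were 5.87 ± 0.86 RPKM in transgenic, 15.0 ± 2.28 RPKM in LXR DKO and 8.66 ± 1.13 RPKM in WT libraries (SD, n = 3 each).

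Sc5d rose by 0.73 ± 0.14 on the log2 scale in LXR DKO against WT (adjusted p = 0.016). It fell by 1.22 ± 0.14 in transgenic against LXR DKO (adjusted p = 0.0206), and the difference of -0.49 ± 0.14 in transgenic minus WT missed the threshold (adjusted p = 0.0566) but passed it without WT 3 (adjusted p = 0.0211). The first call was lost without LXR DKO 3 (adjusted p = 0.0636) and without the pair of libraries with oocyte RNA, LXR DKO 1 and WT 1 (adjusted p = 0.0503). The second held in 9 of 18 alternative settings. It was lost without any single transgenic library (adjusted p from 0.0784 to 0.107) or any single LXR DKO library (adjusted p from 0.0611 to 0.0986), without that pair (adjusted p = 0.0801), with no filter on low values (adjusted p = 0.0648) and with a replicate block (adjusted p = 0.0707), while the difference itself stayed between -1.30 and -1.11 when any 1 library was left out. Markers of other cells also differed between those genotypes. The mean log2(RPKM + 1) of 8 such markers ranged from 3.72 to 4.20 in transgenic, from 4.83 to 5.21 in LXR DKO and from 4.60 to 5.49 in WT libraries, and that of 9 oviduct epithelium markers from 4.22 to 4.80 in transgenic, from 3.01 to 3.82 in LXR DKO and from 2.01 to 4.65 in WT libraries. In transgenic minus LXR DKO, the difference was negative for 8 of 8 macrophage markers and positive for 9 of 9 oviduct markers. Of the macrophage markers, 1 passed the test and 7 had an unadjusted p below 0.05. Of the oviduct markers, 0 passed by limma or voom and 1 had an unadjusted p below 0.05. Among all tested genes, 8.1% had such an unadjusted p. None of these markers was at 0 in any library, and their part in the Sc5d result was not tested.

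Dhcr7 encodes the reductase that turns 7-dehydrocholesterol into cholesterol, the step after Sc5d (plus strand, chr7:143823145-143848410, mm10, ENSMUSG00000058454). It measured 31.3, 28.6 and 26.6 RPKM in transgenic and 36.7, 35.5 and 38.4 RPKM in LXR DKO libraries, against 27.4, 25.5 and 19.6 RPKM in WT libraries. LXR DKO libraries lay above all others, and transgenic and WT libraries overlapped. Dhcr7 rose by 0.60 ± 0.12 in LXR DKO against WT (adjusted p = 0.018), a call lost without LXR DKO 2 (adjusted p = 0.0515) or LXR DKO 3 (adjusted p = 0.0741), and with only these 2 genotypes in the fit (adjusted p = 0.0549). The difference was -0.35 ± 0.12 in transgenic minus LXR DKO (adjusted p = 0.501) and 0.26 ± 0.12 in transgenic minus WT (adjusted p = 0.194).

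The ratio of Dhcr7 to Sc5d, again a pair picked with the values known, was 4.80, 4.64 and 5.43 in transgenic, 2.60, 2.65 and 2.18 in LXR DKO and 2.94, 2.74 and 2.67 in WT libraries. Transgenic libraries had the highest ratio of the 3 genotypes without overlap. Its mean was 4.96 ± 0.421 in transgenic, 2.48 ± 0.262 in LXR DKO and 2.78 ± 0.141 in WT libraries (SD, n = 3 each).

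Nsdhl encodes the dehydrogenase that helps remove the methyl groups at the C4 position of the sterol (plus strand, chrX:72918557-72958514, mm10, ENSMUSG00000031349). It measured 7.41, 8.05 and 7.02 RPKM in transgenic and 6.39, 6.28 and 8.55 RPKM in LXR DKO libraries, against 4.30, 5.07 and 5.73 RPKM in WT libraries. All transgenic and all LXR DKO libraries lay above all WT libraries. Nsdhl rose by 0.50 ± 0.13 in transgenic against WT (adjusted p = 0.0462), whereas the difference of 0.42 ± 0.13 in LXR DKO minus WT missed the threshold (adjusted p = 0.0854). The call against WT held in 6 of 18 alternative settings. It was lost without any 1 transgenic library (adjusted p from 0.102 to 0.136), WT 1 (adjusted p = 0.131), WT 2 (adjusted p = 0.106) or LXR DKO 2 (adjusted p = 0.0605). Leaving out the pair of libraries with oocyte RNA also lost it (adjusted p = 0.124), as did fitting only the 2 genotypes (adjusted p = 0.0508). With all libraries kept, it was lost with no filter on low values (adjusted p = 0.0965), quantile normalization (adjusted p = 0.0599), a replicate block (adjusted p = 0.0579) and voom (adjusted p = 0.0541). In transgenic minus WT, 8 of 8 macrophage markers were negative, 4 of them past the test, and 9 of 9 oviduct markers were positive, 1 of them past the test; their part in the Nsdhl result was not tested.

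Cyp51, the lanosterol demethylase that opens this stretch, went the other way in level but did not pass the test. It measured 21.7, 28.3 and 21.1 RPKM in transgenic and 23.4, 21.0 and 26.4 RPKM in LXR DKO libraries, against 28.5, 37.7 and 31.6 RPKM in WT libraries. Every WT library was above every other library, although WT 1 exceeded transgenic 2 only narrowly. The difference was -0.45 ± 0.14 both for LXR DKO minus WT (adjusted p = 0.0851) and for transgenic minus WT (adjusted p = 0.0784). The ratio of Nsdhl to Cyp51 was 0.341, 0.285 and 0.333 in transgenic, 0.273, 0.300 and 0.324 in LXR DKO and 0.151, 0.135 and 0.181 in WT libraries, a description of a pair picked with the values known.

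**Figure D3:**
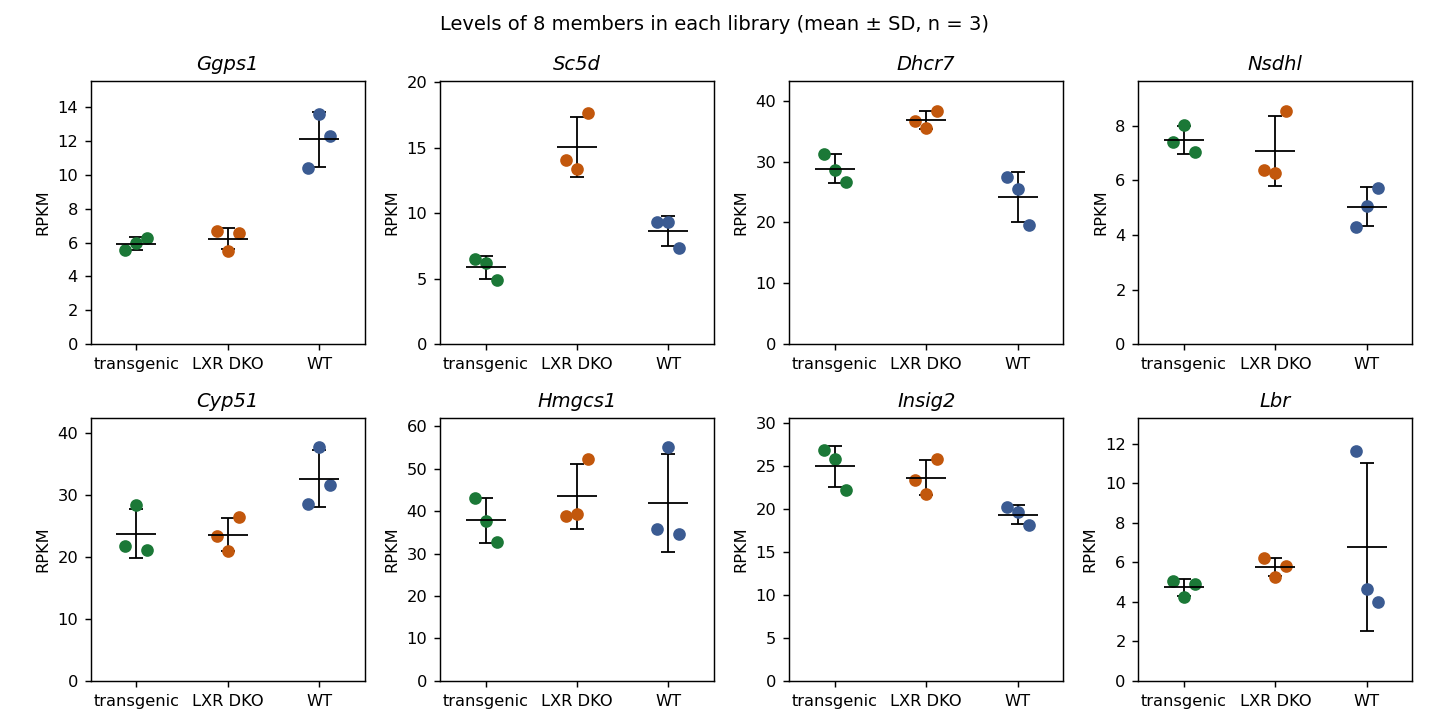
RPKM of Ggps1, Sc5d, Dhcr7, Nsdhl, Cyp51, Hmgcs1, Insig2 and Lbr in transgenic, LXR DKO and WT libraries, from left to right in each panel; points are libraries, and lines are the mean ± SD (n = 3). Sc5d averages 5.87 RPKM in transgenic and 15.0 RPKM in LXR DKO libraries, against 8.66 RPKM in WT libraries, whereas the Hmgcs1 groups overlap and 1 WT library holds the high Lbr value of 11.6 RPKM.

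Lbr and Tm7sf2 encode the C14 sterol reductases that share a step, Lbr being also an anchor of chromatin in the inner nuclear membrane. Lbr measured 5.03, 4.23 and 4.92 RPKM in transgenic and 6.20, 5.27 and 5.80 RPKM in LXR DKO libraries, against 11.6, 4.66 and 3.98 RPKM in WT libraries. The highest value belonged to WT 1, the library in which the mean log2(RPKM + 1) of 12 oocyte markers was 5.95, against 0.19 and 0.25 in the other WT libraries. That mean was 3.76 in LXR DKO 1, against 0.76 and 0.22 in the other LXR DKO libraries. Lbr in LXR DKO 1 was 6.20 RPKM, the highest of its genotype, beside 5.27 and 5.80 RPKM in the other LXR DKO libraries. The part of oocyte RNA in the Lbr values was not tested. The difference for LXR DKO minus WT was -0.07 with WT 1 (adjusted p = 0.910) and 0.34 without it (adjusted p = 0.135), and for transgenic minus WT it was -0.31 with WT 1 (adjusted p = 0.514) and 0.11 without it (adjusted p = 0.624). Tm7sf2 was the lowest of the 28, averaging 1.27 ± 0.227 RPKM in transgenic, 1.12 ± 0.47 RPKM in LXR DKO and 1.06 ± 0.114 RPKM in WT libraries (SD, n = 3 each). Lbr was above Tm7sf2 in 9 of 9 libraries, by a factor of 3.28 to 11.2.

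Msmo1, the methylsterol oxidase, Hsd17b7, the keto-sterol reductase, and Ebp, the sterol isomerase, did not pass the test in any comparison. Msmo1 averaged 22.4 ± 4.17 RPKM in transgenic, 23.0 ± 3.81 RPKM in LXR DKO and 24.8 ± 4.69 RPKM in WT libraries (SD, n = 3 each). Hsd17b7 averaged 13.4 ± 2.13 RPKM in transgenic, 16.5 ± 2.1 RPKM in LXR DKO and 15.7 ± 4.81 RPKM in WT libraries (SD, n = 3 each). Ebp had the narrowest interval of the 28, with 20.5 ± 0.287 RPKM in transgenic, 21.5 ± 2.53 RPKM in LXR DKO and 20.9 ± 0.631 RPKM in WT libraries (SD, n = 3 each), and its 95% interval for LXR DKO minus WT was -0.17 to 0.23.

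**Figure D4:**
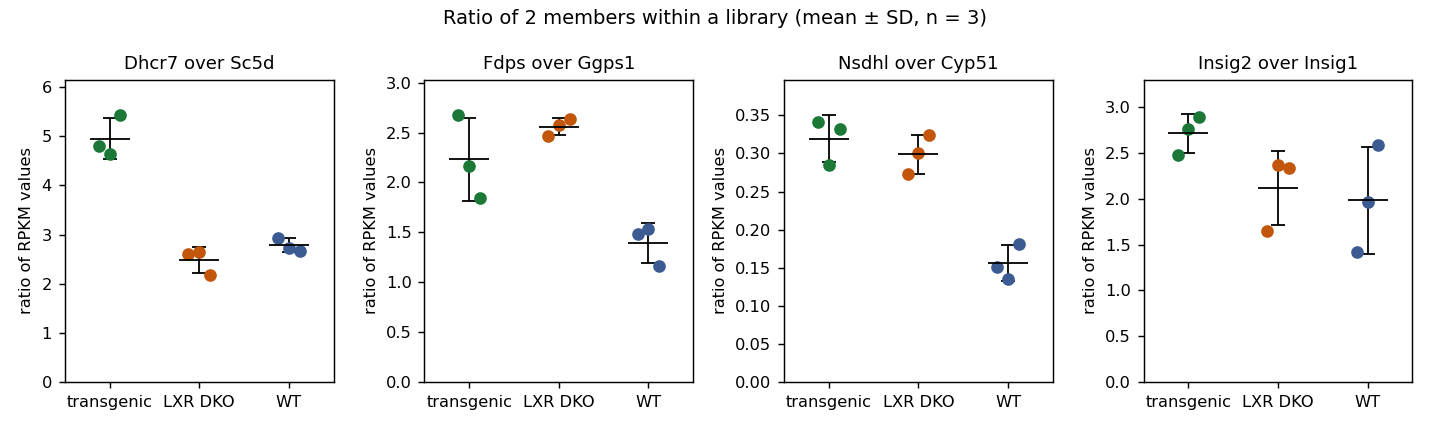
Ratio of RPKM values of pairs of the 28 genes in each library (Dhcr7 over Sc5d, Fdps over Ggps1, Nsdhl over Cyp51, Insig2 over Insig1), in transgenic, LXR DKO and WT libraries from left to right; lines are means ± SD (n = 3). Dhcr7 over Sc5d is at least 4.64 in transgenic and at most 2.94 in the other libraries, and Fdps over Ggps1 and Nsdhl over Cyp51 are lowest in WT.

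None of the 7 control genes passed the test as fitted here or by voom in any comparison; unadjusted p-values below 0.05 were seen for 1 in LXR DKO against WT, 1 in transgenic against LXR DKO and 2 in transgenic against WT, beside 26.5%, 8.1% and 30.4% of all tested genes in those comparisons. Insig2, 1 of the proteins that hold SCAP in the endoplasmic reticulum, came nearest. It measured 26.9, 25.8 and 22.3 RPKM in transgenic and 23.5, 21.8 and 25.8 RPKM in LXR DKO libraries, against 20.3, 19.7 and 18.2 RPKM in WT libraries. All transgenic and LXR DKO libraries lay above all WT libraries, with differences of 0.35 ± 0.10 in transgenic minus WT (adjusted p = 0.0515, but 0.0392 with quantile normalization and 0.0441 with a stricter filter) and 0.27 ± 0.10 in LXR DKO minus WT (adjusted p = 0.113). Insig1, its partner that is itself a target of SREBP2, averaged 9.29 ± 1.57 RPKM in transgenic, 11.5 ± 2.53 RPKM in LXR DKO and 10.5 ± 3.67 RPKM in WT libraries (SD, n = 3 each). Insig2 exceeded Insig1 in 9 of 9 libraries, by a factor of 1.42 to 2.90.

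Srebf2, the gene of SREBP2, averaged 26.9 ± 0.662 RPKM in transgenic, 28.2 ± 3.3 RPKM in LXR DKO and 29.9 ± 2.72 RPKM in WT libraries (SD, n = 3 each), and its 95% interval for LXR DKO minus WT was -0.32 to 0.15. Scap, its escort, averaged 60.1 ± 2.67 RPKM in transgenic, 58.6 ± 11.3 RPKM in LXR DKO and 60.0 ± 13.3 RPKM in WT libraries (SD, n = 3 each). Mbtps1 encodes the first protease to cut SREBP2 and averaged 37.6 ± 1.6 RPKM in transgenic, 40.2 ± 2.71 RPKM in LXR DKO and 36.8 ± 4.47 RPKM in WT libraries (SD, n = 3 each). Mbtps2 encodes the protease that cuts next and averaged 1.75 ± 0.286 RPKM in transgenic, 1.88 ± 0.0212 RPKM in LXR DKO and 1.58 ± 0.289 RPKM in WT libraries (SD, n = 3 each), although 28.4% of its exon bases overlap Yy2. Tmem97, a sterol-binding protein of the endoplasmic reticulum known as the sigma-2 receptor, averaged 15.3 ± 1.11 RPKM in transgenic, 18.8 ± 3.02 RPKM in LXR DKO and 18.6 ± 1.27 RPKM in WT libraries (SD, n = 3 each). Its transgenic libraries lay below all others, with differences of -0.28 ± 0.12 in transgenic minus LXR DKO (adjusted p = 0.601) and -0.27 ± 0.12 in transgenic minus WT (adjusted p = 0.160).

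The enzymes also differed between libraries of 1 genotype. Within WT, 11 of the 21 enzymes were highest in WT 2, where 33.4% of all tested genes were highest. Within LXR DKO, 12 were highest in LXR DKO 3, where 29.2% of all tested genes were highest. Of the 21, 7 were highest in both (Hmgcs1, Idi1, Fdps, Sqle, Lss, Cyp51 and Msmo1), which is 33.3%, beside 14.9% of all tested genes. Both libraries were picked because the enzymes were most often highest in them within their genotypes. A larger shared part than that of all genes follows from this choice and is no separate result. The mean log2(RPKM + 1) of the oocyte markers was the lowest of its genotype in both of these libraries. It was 0.22 in LXR DKO 3, against 0.76 in LXR DKO 2 and 3.76 in LXR DKO 1. In WT 2 it was 0.19, close to the 0.25 of WT 3, whereas WT 1 had 5.95. The part of oocyte RNA in this spread was not tested. The mean log2(RPKM + 1) of the 21 enzymes was 3.63, 3.59 and 3.48 in transgenic, 3.72, 3.55 and 3.77 in LXR DKO and 3.56, 3.77 and 3.58 in WT libraries, so the genotypes overlapped.

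Related genes outside the pathway proper were counted from 3 lists. None of 14 tested genes of the prenyl branches (dolichol, ubiquinone and protein prenylation) and none of 6 of the cytosolic acetyl-CoA supply passed in any comparison by limma, nor did 13 and 6 of them with recovered reads by voom, and unadjusted p-values below 0.05 were seen only in transgenic against WT, for 2 and 1 of them. Of 19 genes for the degradation of sterol-regulated proteins or the regulation of SREBP, 1 fell in LXR DKO against WT, none passed in transgenic against LXR DKO, and 1 rose and 1 fell in transgenic against WT. The gene that fell in both was Rnf145, a ubiquitin ligase of the endoplasmic reticulum that responds to sterols. It measured 42.5, 38.9 and 40.3 RPKM in transgenic and 47.0, 41.3 and 44.1 RPKM in LXR DKO libraries, against 58.5, 72.5 and 54.0 RPKM in WT libraries. All WT libraries lay above the rest, and the differences were -0.58 ± 0.11 in transgenic minus WT (adjusted p = 0.0154) and -0.46 ± 0.11 in LXR DKO minus WT (adjusted p = 0.0333), which held in 16 and 6 of the 18 alternative settings. The first was lost without transgenic 2 (adjusted p = 0.0575) or transgenic 3 (adjusted p = 0.0582), and the second without any 1 library other than LXR DKO 1 and WT 3 (adjusted p from 0.0550 to 0.110). Usp20, a deubiquitinating enzyme, was the gene that rose in transgenic against WT, by 0.33 ± 0.08 (adjusted p = 0.0366). This call held in 7 of the 18 settings and was lost without any 1 library other than LXR DKO 1 and WT 3 (adjusted p from 0.0561 to 0.120). In LXR DKO minus WT, Usp20 differed by 0.30 ± 0.08 (adjusted p = 0.0533), past the threshold in 3 of the 18 settings. In transgenic minus LXR DKO it differed by 0.03 (adjusted p = 0.954). Of the 19 genes, 8 had an unadjusted p below 0.05 in LXR DKO against WT and 5 in transgenic against WT. These stand beside 26.5% and 30.4% of all tested genes. None had one in transgenic against LXR DKO.

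Genes within 250 kb of the members that changed were examined after the values had been seen. Of the tested neighbours, 1 of 5 near Ggps1 fell in both comparisons with WT. This was Tbce, a tubulin folding cofactor, which measured 4.92, 5.02 and 4.41 RPKM in transgenic and 4.25, 4.68 and 4.43 RPKM in LXR DKO libraries, against 6.12, 6.79 and 6.85 RPKM in WT libraries (-0.48 ± 0.09 in LXR DKO minus WT, adjusted p = 0.0132, and 0.0547 without LXR DKO 3; -0.39 in transgenic minus WT, adjusted p = 0.0268). The second of these calls held in 12 of the 18 settings and was lost without any 1 transgenic library (adjusted p from 0.0626 to 0.0951) or WT 2 (adjusted p = 0.0836), and with a replicate block (adjusted p = 0.0506). Of 2 tested neighbours of Sc5d, 1 rose in LXR DKO against WT. This was Sorl1, a sorting receptor, with 0.64 ± 0.15 (adjusted p = 0.0308), a call that held in 10 of the 18 settings, and its difference in transgenic minus LXR DKO was -0.25 (adjusted p = 0.734). Of 6 tested neighbours of Dhcr7, 2 rose in LXR DKO against WT (Tnfrsf22 and Tnfrsf23) and 2 in transgenic against WT (Tnfrsf23 and Osbpl5). In LXR DKO against WT, the Tnfrsf22 call held in 5 of 17 settings and the Tnfrsf23 call in 15 of 17. Of 5 tested neighbours of Nsdhl, none passed in any comparison. Among all tested genes, 10.6% passed in LXR DKO against WT and 11.9% in transgenic against WT.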

How the data were processed

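The authors deposited a matrix of RPKM values for 9 libraries. The submitters' processing notes list HTSeq 0.5.4p5, HISAT2 2.1.0, cutadapt and DESeq2 1.2.8, without roles, and the genome build mm10. For annotation, strand and multiply mapping reads settings were not given in the sources used here, so genes with overlapping exons or close copies have uncertain values. The columns of the transgenic libraries differ from the labels in 1 letter and were matched by the letters TG and the replicate number; 0 columns were left unused.

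Multiplied by summed exon lengths from GENCODE M21, the deposited RPKM values gave whole reads in all libraries, to within 0.02 reads, for 37146 of 37863 genes (98.1%), among them 27 of the 28 members (not Tm7sf2). These reads served for depth and for 1 alternative test, and their limits cover counting error only. No libraries of a genotype were identical: chi-square per degree of freedom was at least 16.5 for every pair.

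Values were transformed to log2(RPKM + 1), and genes with at least 1 RPKM in at least 3 libraries were kept. The 9 libraries were fitted together by genotype alone, with limma 3.58.1 in R 4.3.3 and a mean-variance trend. Adjustment was by Benjamini-Hochberg over 16422 genes, with a threshold of 0.05. A test on counts had been planned had counts been present. The fit was tested on simulated data. The pseudocount makes a fold change understate the change of low genes, and 1 spread was shared by all genotypes although WT libraries differed most among themselves (chi-square per degree of freedom up to 136, against 20.5 in transgenic). Every member is named; genes outside the list are named where they passed the test, mark a cell type, were targeted or overlap or neighbour a member. The members, the lists of related genes and the markers were chosen with earlier results of these data known. Alternatives were another pseudocount, filters, normalizations, a test on the recovered reads (voom in limma), fits on fewer libraries and a replicate block. Coordinates come from GENCODE M21 (mm10) and promoter windows from RefSeq (GRCm38.p6).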

Additional observations from a re-analysis of the deposited data

How the results depend on the processing

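Across 18 alternative settings, 111 differences of single genes gave 1977 values. Of these, 1868 stayed on the same side of the threshold, 96 lost a call and 13 gained one, and 0 reversed. Differences that passed neither way changed sign in 87 values, the largest of them 0.31 in size by the reported fit. Left out one at a time, the libraries gave 609 to 2140 calls over all genes in LXR DKO against WT, 6 to 150 in transgenic against LXR DKO and 650 to 3555 in transgenic against WT, and 1 to 3, 0 to 1 and 1 to 4 calls among the 28 members. The counts of 150 and 3555 came without WT 3. With no filter on low values, 1032 genes passed in LXR DKO against WT and 1096 in transgenic against WT, with 0 members in transgenic against LXR DKO and 1 in transgenic against WT. With only the compared genotypes in the fit, 807 genes passed in LXR DKO against WT and 93 in transgenic against LXR DKO, with 1 member in transgenic against WT. Without the libraries with oocyte RNA (LXR DKO 1 and WT 1), 1145 genes passed in LXR DKO against WT and 1248 in transgenic against WT, with 0 members in transgenic against LXR DKO and 1 in transgenic against WT. Quantile normalization gave 31 genes in transgenic against LXR DKO. The stricter filter gave 5 members in transgenic against WT, and voom on the recovered reads gave 1. The cause of these shifts was not tested.

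With a replicate block, 8 genes passed in transgenic against LXR DKO, 1178 in LXR DKO against WT and 1513 in transgenic against WT, with 0 members in transgenic against LXR DKO (Sc5d, adjusted p = 0.0707) and 1 in transgenic against WT. Libraries with the same number share only that number: the correlation of their deviations from the genotype means ran from -0.293 to 0.672.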

Other observations

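Gramd1b encodes a protein that moves cholesterol from the plasma membrane to the endoplasmic reticulum, and lies 1.72 Mb from Sc5d on chromosome 9. It was picked after its values were seen, as the other gene of chromosome 9 among the 19 that passed the test in transgenic against LXR DKO. Gramd1b measured 17.0, 19.6 and 18.3 RPKM in transgenic and 7.21, 9.93 and 8.42 RPKM in LXR DKO libraries, against 7.56, 7.31 and 5.69 RPKM in WT libraries. All transgenic libraries lay above all others, and LXR DKO and WT libraries overlapped. Gramd1b rose by 1.03 ± 0.13 on the log2 scale in transgenic against LXR DKO (limma, adjusted p = 0.0384), a call that held in 7 of 18 alternative settings and was lost without any 1 library other than WT 3 (adjusted p from 0.0537 to 0.206), and by 1.30 in transgenic against WT (adjusted p = 0.000956). Sc5d, in the same comparison, fell by 1.22. Of the 19 genes, 9 lie on chromosome 12, 3 on chromosome 11 and 3 on chromosome 6. Osbpl5, an oxysterol-binding protein gene near Dhcr7, rose by 0.77 ± 0.12 in transgenic against WT (adjusted p = 0.00764).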
